A study of Homo sapiens with 48 samples.

Results

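The response to UPF1 siRNA was examined in the K498A line, which carries a CLIP-tagged UPF1 with the change K498A, lysine to alanine. Its 6 libraries, taken by their labels, were 3 with siRNA against UPF1 (siUPF1) and 3 with a non-targeting siRNA (siNT), out of 48 libraries in 16 groups of 3 from 8 lines. All were Flp-In 293 T-REx cells, a derivative of the human embryonic kidney line HEK293 with a prepared genomic site for inserting a transgene. The siRNA was given at 40 nM to 300000 seeded cells and RNA was taken 72 h later. Libraries came from 500 ng of RNA each, freed of ribosomal RNA, and both fragment ends were read. The 3 lines used for comparison carried wild-type CLIP-UPF1 (WT), the CLIP tag with no UPF1 (CLIP) or CLIP-UPF1 with the change DE636AA, each with 3 siNT and 3 siUPF1 libraries. The design text calls the triplicates biological. There was 1 stable line per UPF1 form, so a difference between forms and a difference between lines cannot be told apart.

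UPF1 is an ATP-driven RNA helicase at the centre of NMD, or nonsense-mediated mRNA decay, in which the cell destroys mRNAs on which translation stops too early or too far from the end of the message. SMG1 phosphorylates UPF1, the factors UPF2 and UPF3B join it to the exon junction complex, and SMG5 and SMG6 start the decay of the RNA. Several NMD factors are themselves encoded by NMD-sensitive mRNAs, and so are stress genes such as ATF4 and many long non-coding RNAs that carry small nucleolar RNAs (snoRNAs) in their introns. K498 lies in the ATP-binding motif of the helicase and residues D636 and E637 in the motif for ATP hydrolysis, and both changes are used as ATPase-dead forms.

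The reference reading frame around the changed residue is shown because it places the altered codon within the nucleotide-binding loop. It was read from the GENCODE v29 transcript UPF1-201 (GRCh38, 1118 codons), codons 489 to 508, in coding direction, with the K498 codon (AAG, lysine) in capitals. The codon used in the transgene is not given in the sources used here.
UPF1 codons 489 to 508: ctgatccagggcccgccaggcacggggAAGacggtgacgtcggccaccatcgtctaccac

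UPF1 itself was measured first. Levels are CPM, the counts of a gene per 1 M counts of its library, scaled by TMM factors, and reads from the transgene and from the endogenous gene were counted together. In K498A, UPF1 stood at 5566, 4821 and 5882 CPM in siNT replicates 1, 2 and 3 and at 6023, 5466 and 6405 CPM in the siUPF1 replicates. The ranges overlapped, and the log2 change was 0.14 with a standard error (SE) of 0.16 (adjusted p = 0.559, edgeR quasi-likelihood test). In the CLIP line, where all UPF1 reads come from the endogenous gene, UPF1 was 105, 106 and 113 CPM with siNT and 18.2, 36.8 and 17.7 CPM with siUPF1, a fall of 2.17 on the log2 scale. The total UPF1 level in K498A therefore gives no measure of how far the endogenous mRNA fell in that line.

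The K498A libraries held 28.8 to 47.1 M expected counts (21.3 to 47.1 M over all 48 libraries), and 24271 to 26444 genes had a count. K498A siNT replicate 3 stood apart from the other siNT replicates: its gene-wise deviation from them had a Spearman correlation of 0.604 with transcript GC content, across 13922 genes that are not independent, against -0.45 and -0.405 for replicates 1 and 2. Each siNT library was set against the mean of the other siNT libraries, so the values of replicates 1 and 2 in part mirror replicate 3. Set against the siNT mean, siUPF1 replicates 1, 2 and 3 had 0.0142, -0.0985 and 0.156. Replicate 3 of siNT also had the lowest share of mitochondrial counts, 1.53% against 2.24% and 2.47%, and the siUPF1 libraries had 2.22 to 2.92%. Where a count below moved by over 1.5 times without siNT replicate 3, that is said beside it. The same holds for genes named by size of change that lost their call. The calls of other list members were not followed one by one. All 8 fixed HEK293 markers were detected, with summed levels, before TMM scaling, of 1302 to 1457 CPM with siNT and 1217 to 1418 CPM with siUPF1. Of 11 markers of other cell types in the table, CD3E was at 0 in all siNT and PTPRC at 0 in all siUPF1 libraries. The other-cell markers summed to 96.2 to 106.5 CPM and 87.7 to 94.6 CPM on the same scale, and most of this was EPCAM, an epithelial adhesion gene, at 69.2 to 93.3 CPM after TMM scaling.

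Of 19129 genes tested, 6247 (32.7%) changed in K498A at an adjusted p under 0.05, which is the meaning of called, rose and fell below. Of these, 3094 (16.2%) rose and 3153 (16.5%) fell, and the median log2 change of all tested genes was -0.0050. Without siNT replicate 3 the counts were 2607 and 2597. A change of at least 2-fold was found for 444 genes upward (2.32%) and 657 downward (3.43%). All 3 siUPF1 libraries lay on one side of all 3 siNT libraries for 9027 genes (47.2%). In bulk RNA, fewer cells of a kind and less RNA per cell cannot be told apart.

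The calls fell mainly on protein-coding genes, of which 18.9% of 14077 rose and 19.1% fell. Among 2443 long non-coding genes 9.09% rose and 12.6% fell, and among 1765 pseudogenes 7.08% rose and 4.76% fell. Of the protein-coding genes matched to GENCODE v29, 44.1% of the 2642 that rose had at least 1 transcript annotated as an NMD substrate, against 41.9% of the 2682 that fell and 40.3% of the 8598 not called. Median 3′ UTR length was 1142 bases for the genes that rose, 1036 for those that fell and 900 for those not called. These annotations describe the genes and not the transcripts expressed here, and no test was made of them.

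Among genes averaging 5 CPM or more whose groups did not overlap, the largest rise was that of ARC, an immediate early gene of synaptic plasticity. ARC stood at 3.71, 3.67 and 4.2 CPM in the siNT libraries and 25.1, 19.3 and 30.4 CPM in the siUPF1 libraries, a log2 change of 2.69 (SE 0.29, adjusted p = 2.63e-09). No siUPF1 library came near the siNT range. DHRS2, a short-chain dehydrogenase, had 1.88, 2.83 and 1.96 CPM with siNT and 9.35, 13.7 and 7.22 CPM with siUPF1, a rise of 2.18 (SE 0.25). G0S2, an inhibitor of triglyceride lipolysis, went from 1.95, 1.97 and 2.48 CPM to 8.88, 7.71 and 10.9 CPM, a rise of 2.11 (SE 0.18). PAQR6, a membrane progesterone receptor, went from 1.95, 2.4 and 2.37 CPM to 8.69, 8.72 and 9.38 CPM (2.00, SE 0.20). In each of these genes every siUPF1 library was more than 2 times the highest siNT library.

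MCOLN1, a lysosomal cation channel, rose from 4.03, 5.41 and 5.23 CPM to 16.8, 20.6 and 16 CPM (1.87, SE 0.13). VAV1, a guanine nucleotide exchange factor known from blood cells, rose from 2.57, 3.33 and 2.34 CPM to 9.69, 9.57 and 8.81 CPM (1.76, SE 0.14). The 6 next largest rises were in JOSD2, a deubiquitinase (1.71), STMND1 (1.69), ENPP5 (1.69), the orphan nuclear receptor NR6A1 (1.68), the signal recognition particle receptor subunit SRPR (1.60) and RAI2 (1.60). SRPR was the most abundant of the 12, at 43.6, 50.5 and 38.1 CPM with siNT and 143, 148 and 112 CPM with siUPF1. In NR6A1, siUPF1 replicate 3 was the low library of its group, at 62.1 CPM against 109 and 114 CPM. The siNT libraries of NR6A1 had 31, 33.7 and 24.4 CPM, and groups without overlap were a condition for naming these 12 genes. PAQR6 overlaps PMF1-BGLAP and SRPR overlaps FOXRED1 and FAM118B on the opposite strand, and MCOLN1 overlaps PNPLA6 on the same strand. Whether counting used strand is not given in the sources used here, so these 3 values are uncertain. All 12 also rose in WT, by 1.74 for VAV1, 1.75 for SRPR and 1.41 for ARC, and none of the 12 was called different between the K498A and WT responses.

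**Figure D1:**
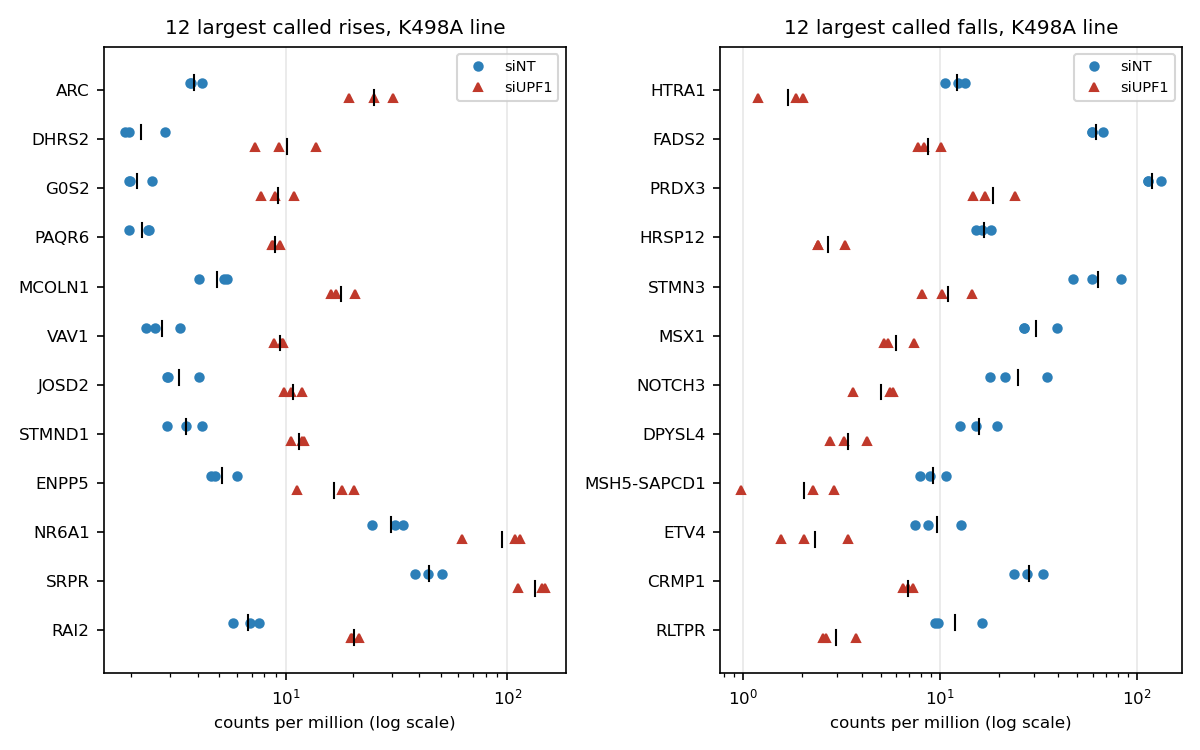
CPM in each K498A library (log axis) for the 12 largest called rises (left) and falls (right), with siNT as circles, siUPF1 as triangles and the group mean of 3 as a black bar. In every gene shown the siUPF1 libraries lie entirely to one side of the siNT libraries, which was a condition for choosing the genes.

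Under the same rule the largest fall was in HTRA1, a secreted serine protease, which went from 12.4, 10.7 and 13.3 CPM in the siNT libraries to 2.02, 1.19 and 1.85 CPM in the siUPF1 libraries. Its log2 level fell by 2.84 (SE 0.19, adjusted p = 3.89e-14). FADS2, a fatty acid desaturase, went from 59.1, 59.1 and 67.5 CPM to 8.33, 7.71 and 10.1 CPM and fell by 2.83 (SE 0.14). FADS2 overlaps FADS1 on the opposite strand and FEN1 on the same strand. PRDX3, the mitochondrial peroxiredoxin, was far more abundant, with 133, 114 and 114 CPM with siNT and 14.8, 16.9 and 24.2 CPM with siUPF1, a fall of 2.69 (SE 0.23). The lowest siNT library of PRDX3 was more than 4 times its highest siUPF1 library. HRSP12, an enzyme that clears reactive imines, went from 18.3, 16.5 and 15.3 CPM to 2.41, 2.4 and 3.28 CPM, a fall of 2.64 (SE 0.26).

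The other 8 of the 12 falls follow. The microtubule-destabilising stathmin STMN3 had 59.4, 47.6 and 83 CPM with siNT and 10.3, 8.08 and 14.5 CPM with siUPF1 (fall of 2.53, SE 0.36). The homeobox gene MSX1 had 26.9, 26.8 and 39.2 CPM and 5.43, 5.21 and 7.37 CPM (fall of 2.37, SE 0.18), and the receptor NOTCH3 had 21.5, 18 and 34.9 CPM and 5.58, 3.64 and 5.79 CPM (fall of 2.31, SE 0.29). In all 3 genes siNT replicate 3 was the highest siNT library. DPYSL4 and CRMP1, both of the collapsin response mediator family, fell by 2.21 (SE 0.24) and 2.04 (SE 0.19). The ETS factor ETV4 fell by 2.07 (SE 0.33) and the actin regulator RLTPR by 2.00 (SE 0.28). The read-through locus MSH5-SAPCD1 fell by 2.16, but its SE was 0.75, it shares reads with MSH5 and SAPCD1, and the call was lost when siNT replicate 2, siUPF1 replicate 2 or siUPF1 replicate 3 was left out (adjusted p of 0.0566 to 0.117). ETV4, CRMP1 and RLTPR also overlap a gene on the opposite strand. PRDX3, HRSP12, MSX1 and ETV4 fell in WT as well, by 2.83, 2.42, 2.42 and 2.26. HTRA1 and FADS2 fell less in WT, by 1.59 and 2.01, and for these 2 genes the difference between the responses was itself called.

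Gene lists are described by how many tested members were called, to be read against the 32.7% called among all genes and their median of -0.0050. Lists and members were chosen with earlier results of these data known, so a share above that of all genes is a description and not independent support. Of 13 genes of the NMD machinery, 4 rose and 2 fell in K498A (46.2% called), with a median log2 change of 0.08. SMG1, the kinase that phosphorylates UPF1, was 351, 365 and 330.4 CPM in the siNT libraries and 558, 579 and 524 CPM in the siUPF1 libraries, a rise of 0.67 (SE 0.08, adjusted p = 1.75e-08). SMG1 has near-identical pseudogene copies that can share its reads, so its level is uncertain. UPF2, the adaptor between UPF1 and the exon junction complex, went from 86.7, 90 and 82 CPM to 147, 154 and 129 CPM (0.73, SE 0.10). SMG5, which recruits decay enzymes to phosphorylated UPF1, went from 155, 173 and 178 CPM to 266, 265 and 278 CPM (0.68, SE 0.10). In each the groups were fully separated. Those that fell were RUVBL1, an ATPase that supports the SMG1 kinase family, from 195, 187 and 205 CPM to 115, 112 and 122 CPM (by 0.75; it overlaps SEC61A1 and EEFSEC on the opposite strand), and the helicase DHX34 (by 0.43). The endonuclease SMG6 (0.10), the SMG1 partners SMG8 (0.08) and SMG9 (0.06) and the UPF3 genes UPF3A (0.08) and UPF3B (-0.01) were not called. In WT the counts were 1 higher and 4 lower (median -0.13), with SMG5 down by 0.31, and in CLIP they were 9 higher and 1 lower (median 0.65).

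Of 15 genes listed as NMD targets, chosen with earlier results of these data known, 8 rose in K498A and none fell (53.3% called), with a median of 0.56. All 15 log2 changes were above 0, and the number that rose was 8 with DESeq2 as well. BAG1, a co-chaperone, moved furthest, from 40.7, 43.9 and 53.5 CPM with siNT to 120.4, 121 and 151 CPM with siUPF1 (1.51, SE 0.14). The transcription factor ATF4 was the most abundant target named, at 764, 760.5 and 902 CPM and 1441, 1338 and 1562 CPM (0.84, SE 0.08, adjusted p = 2.47e-10). ATF3, a related stress factor, went from 51.9, 54.8 and 42.8 CPM to 83, 80.8 and 70.2 CPM (0.65, SE 0.14). No siUPF1 library of these genes fell inside the siNT range. GADD45B (0.72), the kinase MAP3K14 (0.60) and the unfolded-protein sensor ERN1 (0.56) also rose, together with the autophagy gene GABARAPL1 (0.88) and the pseudogene RP9P (0.98). DDIT3 (0.32), UPP1 (0.23), GADD45A (0.22), NAT9 (0.21), TBL2 (0.19), CDKN1A (0.07) and DNAJB2 (0.04) were not called. With the replicate number as a block 11 of the 15 rose.

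The same targets are set beside the other lines in the plot of NMD genes. In WT 1 of 15 rose and 1 fell (median -0.04), in CLIP 15 rose (median 1.00) and in DE636AA 11 rose (median 0.47). The share of all genes called was 27.2% in WT, 47.4% in CLIP and 34.3% in DE636AA. Tested directly, the K498A response exceeded that of WT for 4 targets, ATF4 (difference 0.73, SE 0.11), ATF3 (0.94), GABARAPL1 (0.86) and RP9P (0.97). It was below that of CLIP for 9, the largest difference being RP9P (-1.30, SE 0.20), followed by GADD45A (-0.87), UPP1 (-0.86) and NAT9 (-0.81). For ATF4 the difference from CLIP was 0.04 (SE 0.11) and was not called. Of the 13 NMD factors 5 were higher and 1 lower in K498A than in WT, with SMG5 at 0.99 (SE 0.14), UPF2 at 0.72, SMG1 at 0.65 and SMG9 at 0.40, and RUVBL1 at -0.43.

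**Figure D2:**
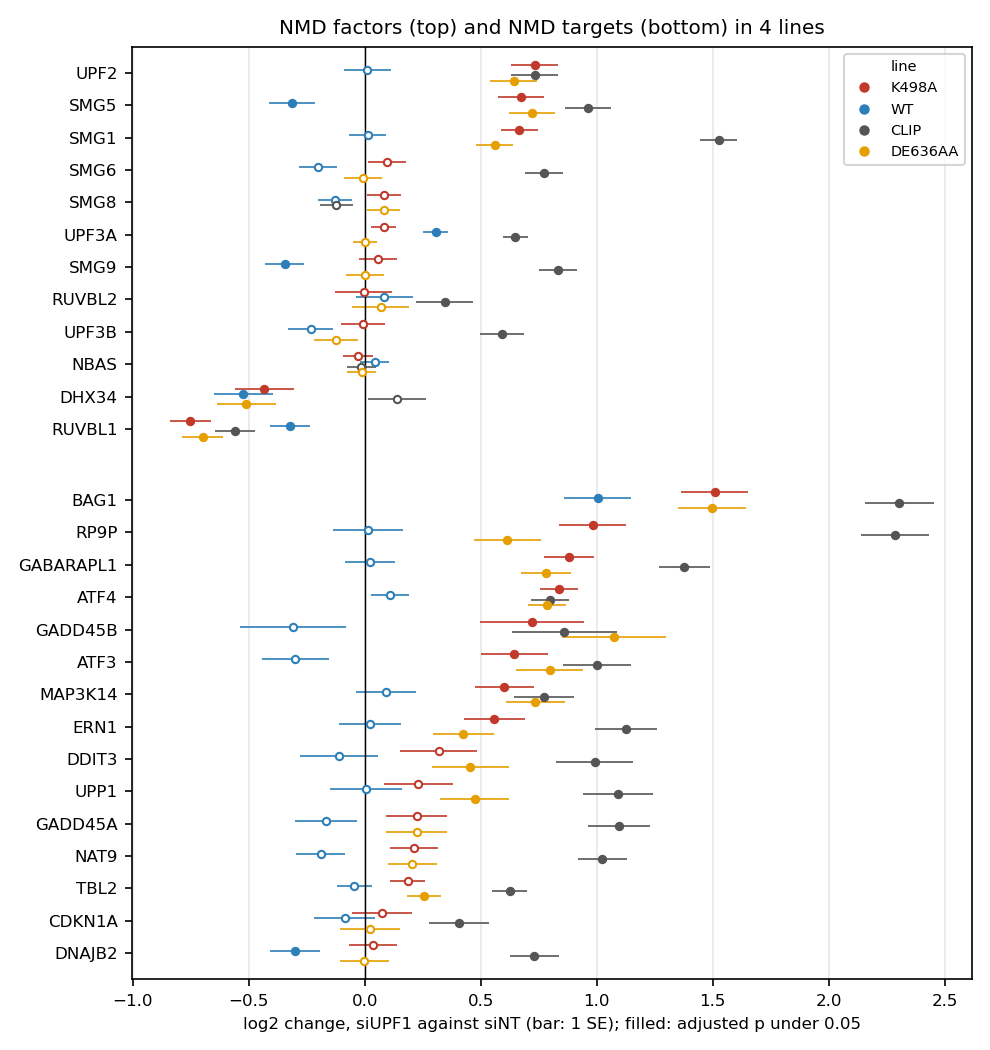
Log2 change after siUPF1 with 1 SE (horizontal axis) for 12 NMD factors (top) and 15 NMD targets (bottom) in K498A, WT, CLIP and DE636AA; filled points have an adjusted p under 0.05. K498A points lie close to those of DE636AA, and for BAG1, RP9P, GABARAPL1 and SMG1 they lie between WT and CLIP.

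Of 18 tested host genes of snoRNAs 7 rose in K498A and 1 fell (44.4% called), with a median of 0.28. Without siNT replicate 2, siNT replicate 3 or siUPF1 replicate 1 the number that rose was 4. EPB41L4A-AS1 went from 41.6, 45.5 and 44.8 CPM to 81.4, 79 and 84.7 CPM (0.89, SE 0.08) and SNHG7 from 37.9, 37.6 and 43.2 CPM to 71.5, 62.8 and 75.9 CPM (0.83, SE 0.12), with no overlap of the groups in either. ZFAS1 (0.54) and SNHG5 (0.47) were among the calls lost without each of these 3 libraries (adjusted p of 0.0880 to 0.134 and of 0.104 to 0.136). The gene that fell was SNHG3 (by 0.46). GAS5, a widely used NMD-sensitive host, had a change of -0.14 in K498A and rose by 0.74 in CLIP. For EPB41L4A-AS1 and SNHG7 the response was above that of WT by 0.85 and 0.78. For 11 of the 18 it was below that of CLIP, most of all for C6orf48 (-1.71, SE 0.16), which went from 45.7, 33.6 and 37.9 CPM to 52.2, 47 and 46.9 CPM in K498A and from 31.8, 34.6 and 31.3 CPM to 129, 117 and 153 CPM in CLIP.

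Splicing factors whose own mRNAs carry poison exons, which lead to NMD when included, were also examined as gene totals. Of 23 tested, 2 rose and 5 fell in K498A (median -0.15; 30.4% called, close to the share of all genes), and 8 fell with the replicate block. Those that rose were CLK2 (0.40) and TRA2A (0.44), and TRA2A lost its call without siNT replicate 1, siNT replicate 3 or siUPF1 replicate 2 (adjusted p of 0.0599 to 0.0771). The largest fall was in HNRNPA2B1, an RNA-binding protein of the heterogeneous nuclear ribonucleoprotein group, which went from 2246, 2379 and 2280 CPM to 1332, 1471 and 1406 CPM (by 0.71, SE 0.08), followed by HNRNPDL (by 0.44), PTBP1 (by 0.35), SRSF5 (by 0.31) and SRSF2 (by 0.20). HNRNPA2B1 was 2344, 2510 and 2318 CPM and 2156, 2275 and 2157 CPM in WT, a change of -0.12 that was not called, and the difference between the lines was -0.59 (SE 0.11). Gene totals do not show which isoforms were made.

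Of 20 exon junction and decay factors 3 rose and 3 fell (median -0.03; 30% called, close to the share of all genes), and 5 rose with the replicate block. The decapping activator DCP1A rose by 0.59 (SE 0.07), PNRC2 by 0.41 and LSM1 by 0.28. Without siNT replicate 3 the number that rose was 2, and LSM1 was not called. DDX6, a helicase of translational repression and decapping, went from 225, 216 and 193 CPM to 125, 139 and 122 CPM and fell by 0.72 (SE 0.09), and its fall exceeded the WT change of -0.13 by 0.59 (SE 0.13). STAU1, which binds UPF1 in another decay pathway, fell by 0.59 in K498A and 0.51 in WT, and the nuclear exonuclease XRN2 by 0.35 and 0.36. The junction proteins EIF4A3 (-0.03), RBM8A (0.15), MAGOH (0.12) and CASC3 (0.03) were not called in K498A.

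ATF4 activates genes of amino acid supply and stress. Of 24 known targets 11 rose in K498A and 2 fell (54.2% called), with a median of 0.35. SESN2, an inhibitor of growth signalling, went from 32.1, 34.9 and 37.9 CPM with siNT to 77.5, 78.5 and 77.6 CPM with siUPF1 (1.16, SE 0.13). GPT2, a mitochondrial alanine transaminase, went from 78.8, 84.5 and 93.2 CPM to 161, 159.7 and 176 CPM (0.95, SE 0.12), and the repressor JDP2 from 2.42, 2.98 and 4.75 CPM to 7.67, 7.35 and 8.99 CPM (1.26, SE 0.21). In these 3 genes the groups did not overlap. The amino acid transporter SLC7A5 rose by 0.82 and its partner SLC3A2 by 0.60. PSAT1, of serine synthesis, moved the other way, from 135, 128 and 122 CPM to 57, 59.2 and 61.5 CPM (a fall of 1.12, SE 0.14), and the tryptophanyl-tRNA synthetase WARS fell by 0.57. ASNS (-0.00), TRIB3 (0.21), CHAC1 (0.34) and DDIT4 (-0.36), often used to read ATF4 activity, were not called. In WT 7 of the 24 rose and 2 fell (median 0.01), and the K498A response was above that of WT for GPT2 (by 0.74), STC2 (by 0.70) and SLC3A2 (by 0.41).

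Promoters of the ATF4 targets were searched for the C/EBP-ATF element, because members that share an element could be set beside their changes. The RefSeq promoter windows (GRCh38.p14, 250 bases before to 50 after the start site) were matched by symbol for 20 of the 24 genes and searched on both strands for TGATGNAA. A match was found in 4 of 20 (20%), against 1.70% of 11909 promoters of tested genes and 3.67% of all 27305 promoters. The matched windows upstream of the start site are printed below, on the gene's strand, with the element in capitals.
ASNS (promoter chr7:97872359-97872658, minus strand): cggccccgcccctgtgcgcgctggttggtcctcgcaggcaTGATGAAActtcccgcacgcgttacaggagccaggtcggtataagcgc
CHAC1 (promoter chr15:40953221-40953520, plus strand): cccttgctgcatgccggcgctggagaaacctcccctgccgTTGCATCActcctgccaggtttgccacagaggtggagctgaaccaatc
AARS (promoter chr16:70289457-70289756, minus strand): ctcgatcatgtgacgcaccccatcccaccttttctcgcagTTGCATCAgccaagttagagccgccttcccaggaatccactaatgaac
The genes with these windows were not called in K498A (ASNS -0.00, CHAC1 0.34, AARS -0.05), while SLC3A2, whose match lies after the start site, rose. For a promoter with no match, the search says only that these letters are absent from this window.

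Of 17 chaperones and related genes of the endoplasmic reticulum 7 rose in K498A and 1 fell (median 0.19; 47.1% called), against 8 and 0 in WT (median 0.27; 6 and 1 in CLIP). DNAJB9, a co-chaperone, went from 13.9, 12.7 and 9.8 CPM to 31.5, 34.3 and 20.5 CPM (1.25, SE 0.23) and HYOU1, a large chaperone, from 152, 168 and 165 CPM to 301, 299 and 300.3 CPM (0.89, SE 0.11). XBP1, the transcription factor spliced by ERN1, rose by 0.69 and HSPA5, the main chaperone of the compartment, by 0.55. HSP90B1 (-0.11), CALR (0.02) and PDIA6 (-0.10) were not called, and CANX fell by 0.28. For CANX and PDIA6 the response lay below that of WT, by 0.40 and 0.47.

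More of the listed lipid synthesis genes fell than rose in K498A. Of 20 genes of cholesterol synthesis and its control 7 fell and 1 rose (median -0.28; 40% called). HMGCS1, the first committed step, went from 254, 201 and 210.5 CPM to 172, 149 and 134 CPM and fell by 0.55 (SE 0.17), a call lost without siNT replicate 1 or without siUPF1 replicate 3 (adjusted p = 0.0733 and 0.0579). IDI1, an isomerase of the pathway, went from 140.2, 114 and 126 CPM to 96.2, 88 and 81.4 CPM (fall of 0.52, SE 0.12), and FDFT1, which makes squalene, from 164, 146 and 166 CPM to 117, 112 and 107 CPM (fall of 0.50, SE 0.08). The groups did not overlap in these 3 genes. Squalene epoxidase, SQLE, fell by 0.40, FDPS by 0.26 and the sterol sensor partner INSIG1 by 0.44. Among members not called, DHCR7 (0.06), SC5D (0.07), NSDHL (0.16), MVD (0.04) and SREBF2 (0.16) were above 0. STARD4 (-0.35), MSMO1 (-0.31), LSS (-0.31), CYP51A1 (-0.29), EBP (-0.12) and MVK (-0.09), also not called, were below 0.

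The WT line gave other directions for these genes. In WT 8 of the 20 rose and 1 fell (median 0.20), and in CLIP 6 rose and 10 fell (median -0.24). Tested directly, 9 of the 20 had a K498A response below that of WT. The median difference was -0.45, against -0.0051 over all genes. Among the 9 were LSS (-0.74), FDFT1 (-0.67), DHCR7 (-0.64), IDI1 (-0.61), SQLE (-0.61), EBP (-0.46) and FDPS (-0.36). DHCR7, which makes the last step to cholesterol, shows the pattern from the WT side: it was 41.8, 42.2 and 40.9 CPM and 45.5, 44.7 and 39.6 CPM in K498A, which overlap, and 39.6, 39.9 and 40.6 CPM and 67.6, 71.9 and 54.8 CPM in WT, which do not.

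Of 12 genes of fatty acid synthesis 6 fell in K498A and 1 rose (median -0.21; 58.3% called), against 4 and 4 in WT. FASN (0.15), ACACA (0.01), ACSL3 (-0.03), ELOVL5 (-0.05) and ELOVL6 (-0.13) were not called in K498A. Besides FADS2, its neighbour FADS1 fell by 1.56 (SE 0.09) in K498A and by 1.47 in WT. SCD, the desaturase that makes oleate, was 576, 564 and 532 CPM with siNT and 374, 351 and 349 CPM with siUPF1, a fall of 0.64 (SE 0.08). In WT it was 509.8, 526 and 531 CPM and 603, 585 and 587 CPM, a change of 0.18 that was not called, and the difference between the responses was -0.82 (SE 0.12, adjusted p = 2.18e-05). ACLY, which supplies cytosolic acetyl-CoA, fell by 0.86 in K498A and by 0.24 in WT, a difference of -0.62 (SE 0.10). SREBF1, the transcription factor of the pathway, rose by 0.70 in K498A, 1.33 in WT and 1.71 in CLIP, and its difference from WT, -0.63 (SE 0.21), was not called. In all, the K498A response lay below that of WT for 5 of the 12, also for ACSL1 (-0.52) and ACACA (-0.39).

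**Figure D3:**
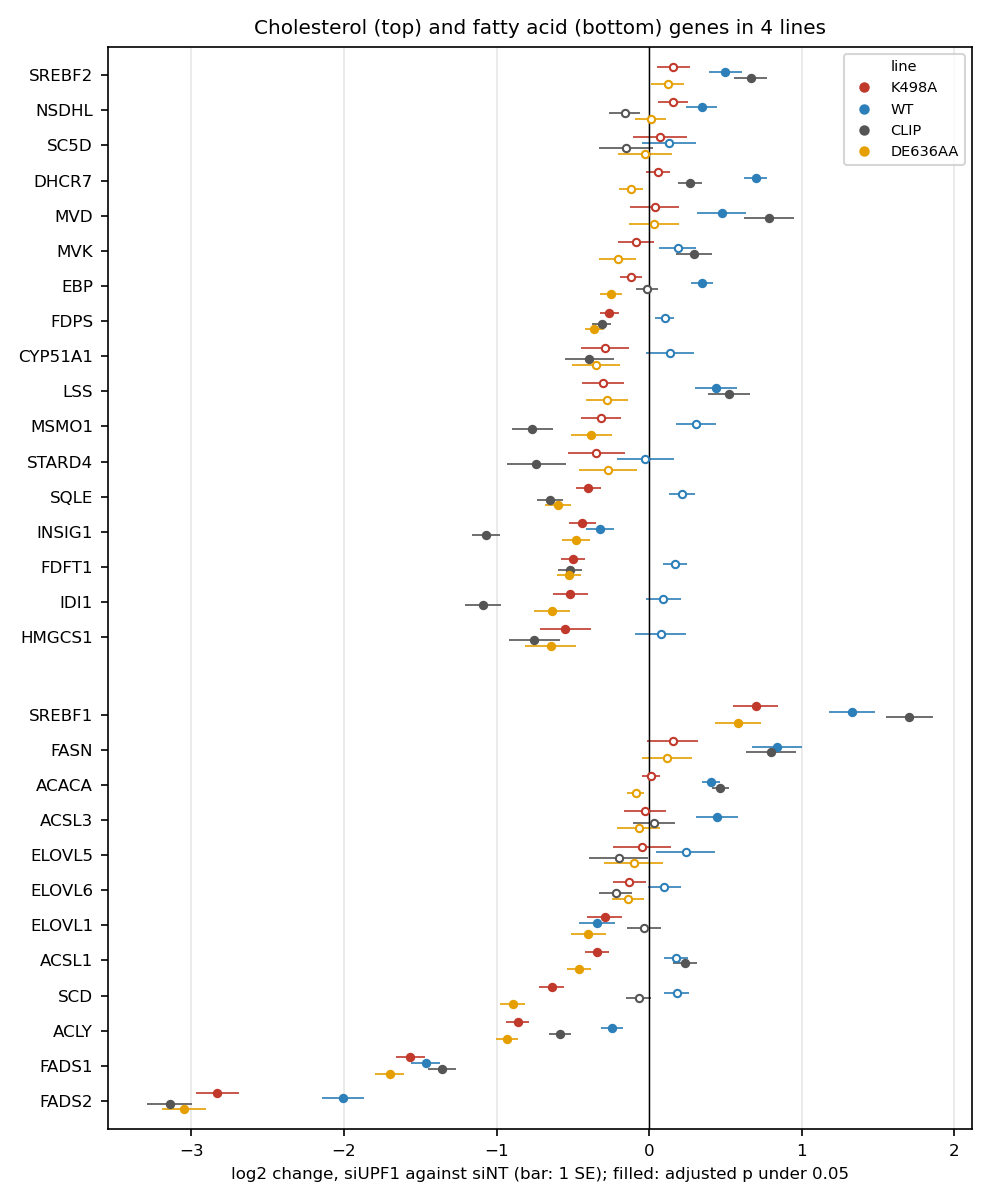
Log2 change after siUPF1 with 1 SE (horizontal axis) for 17 cholesterol genes (top) and 12 fatty acid genes (bottom) in K498A, WT, CLIP and DE636AA; filled points have an adjusted p under 0.05. In the 17 cholesterol genes shown the K498A and DE636AA points lie left of the WT point, by little for SC5D and INSIG1, and FADS2 and FADS1 lie far to the left in all 4 lines.

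Of 15 genes that ERK signalling induces and that feed back on it, 10 fell and 3 rose in K498A (median -0.49, 86.7% called), and in WT 10 fell and 1 rose (median -0.72). The number that rose was 1 without siNT replicate 1, siNT replicate 3 or siUPF1 replicate 2, and 1 with no filter or in a fit to the K498A libraries alone. Beside ETV4, the related factors ETV1 and ETV5 fell by 1.40 and 1.14, the ERK phosphatase DUSP6 by 0.94 and the inhibitor SPRY4 by 1.32. SPRY4 was 4.82, 6.39 and 6.84 CPM and 2.19, 2.22 and 2.81 CPM in K498A, and 4.77, 5.92 and 7.84 CPM and 1.22, 0.925 and 0.887 CPM in WT. Both lines were separated, and the K498A fall was smaller than that of WT by 1.26 (SE 0.29). DUSP5, another ERK phosphatase, was 10.3, 12.5 and 9.32 CPM and 13.8, 14.8 and 12.2 CPM in K498A, where the groups overlap, with a rise of 0.35, while it fell by 0.30 in WT and 0.42 in CLIP. The K498A response of DUSP5 differed from both, by 0.65 and 0.77.

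Of 16 immediate early genes 5 rose in K498A and 1 fell (median 0.23, 37.5% called), against 1 and 3 in WT (median -0.17) and 9 and 1 in CLIP. Without siUPF1 replicate 2 the fall was not called. Those that rose beside ARC were EGR1 (0.93), FOS (0.70), JUN (0.65) and MYC (0.58), and FOSL1 fell by 0.59. FOS was at a low level, 2.18, 2.83 and 1.79 CPM with siNT and 3.9, 3.54 and 3.64 CPM with siUPF1, and its call was lost without siNT replicate 1, siNT replicate 3 or siUPF1 replicate 1 (adjusted p of 0.0807 to 0.134). EGR1 is described with the differences from WT.

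Of 19 genes of the cell cycle and DNA replication 8 fell and 1 rose (median -0.23, 47.4% called), where 16.5% of all genes fell. TYMS, which makes thymidylate, went from 208, 201 and 208 CPM to 114, 113 and 109 CPM (fall of 0.88, SE 0.08), and TOP2A (0.62), AURKA (0.58) and RRM2 (0.45) fell by the amounts in brackets. MCM5 rose by 0.28, a call lost without siNT replicate 1, siUPF1 replicate 2 or siUPF1 replicate 3, and MKI67 (-0.28), PCNA (-0.05) and CDK1 (-0.23) were not called. Of 14 p53 targets 3 rose and 3 fell (median 0.05, 42.9% called). FDXR (0.69), BAX (0.63) and FAS (0.58) rose, RRM2B fell by 0.69, XPC by 0.51 and POLH by 0.25, and CDKN1A and MDM2 (-0.17) were not called.

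Of 12 thioredoxin and peroxiredoxin genes 5 rose and 2 fell (median 0.10, 58.3% called). TXNIP, the thioredoxin-binding arrestin, went from 14.5, 10.8 and 8.73 CPM to 30.7, 23.4 and 19.8 CPM (1.12, SE 0.20) and TXNRD2, the mitochondrial reductase, rose by 0.87. PRDX2 fell with PRDX3, by 0.64, while PRDX1 rose by 0.46, and PRDX4 (0.18), PRDX5 (-0.20) and PRDX6 (-0.13) were not called. The number that rose was 3 without siNT replicate 1. Of 14 interferon-stimulated genes 2 rose and 4 fell (median -0.03, 42.9% called). The rises, IFI27 (0.73) and IFI44 (1.51), were both lost without siNT replicate 3 (adjusted p = 0.0611 and 0.0574), and IFI44 also without each of the other 5 libraries and with DESeq2 (adjusted p of 0.0540 to 0.171). OAS3, an antiviral synthetase, went from 4.3, 3.93 and 4.5 CPM to 1.36, 1.55 and 1.37 CPM (fall of 1.57, SE 0.17), more than in WT by 1.03 (SE 0.25).

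Genes used as references or markers were not all stable. Of 13 common reference genes 1 rose and 3 fell (median -0.12, 30.8% called, close to the share of all genes), and 2 rose with the replicate block. GUSB went from 21.8, 22.2 and 22.2 CPM to 47.7, 45.1 and 45.7 CPM, a rise of 1.06 (SE 0.09), with 1.07 in WT and 1.12 in CLIP. GAPDH, PPIA and PGK1 fell by 0.35, 0.32 and 0.35, and ACTB (0.13), TBP (-0.12) and SDHA (0.13) were not called. Of 86 ribosomal protein genes 14 fell and 3 rose (median -0.14; 19.8% called, below the share of all genes). The number that fell was 22 with the replicate block and 8 without siNT replicate 3, 6 without siNT replicate 1 and 7 without siUPF1 replicate 2. RPLP0 was the outstanding member, with 566, 466 and 602 CPM and 1275, 1036 and 1175 CPM (1.09, SE 0.11), and it rose by 1.16 in WT. Of the HEK293 markers NEFL (0.43) and KRT18 (0.28) rose and INA (by 0.89), PAX2 (by 0.76), CDH2 (by 0.56) and VIM (by 0.25) fell. Without siNT replicate 3 the number that fell was 3, and VIM was not called. Neither rise of these markers was called without siNT replicate 1 or without siNT replicate 2, and 1 was called without siUPF1 replicate 1 or 3. Of the 6 other-cell markers that could be tested, VWF (1.67), at or under 1.32 CPM in every library, and COL3A1 (0.78) rose and EPCAM fell by 0.33. The number that rose was 1 without siNT replicate 1, and the part of these cell types in other results was not tested.

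Of 59 histone genes that passed the filter, 5 rose and 2 fell (median 0.02; 11.9% called, below the share of all genes), and 30 of the 89 listed were not tested. With the replicate block 4 fell, with no filter on low counts 7 fell, 3 rose without siNT replicate 2, and the falls numbered 0 without siNT replicate 1 and 1 without siUPF1 replicate 2 or 3. HIST1H2BG rose by 1.37 and HIST1H2AE by 1.15, and HIST1H1A fell by 1.37, a call lost without siNT replicate 1, siUPF1 replicate 1 or siUPF1 replicate 2 and with no filter (adjusted p of 0.0680 to 0.0926). Of 15 mitochondrially encoded genes 1 was called (6.67%), MT-ND1 (0.68), and with no filter on low counts 11 were called higher. The list had a median of 0.36 that was 0.15 without siNT replicate 3, where the call was also lost. It was lost without siUPF1 replicate 1 as well, and 2 genes were called without siUPF1 replicate 2 or 3. The ribosomal RNA gene MT-RNR1 had 1.29, 0.145 and 0.447 CPM and 8.43, 0.49 and 0.269 CPM, so its value of 2.27 rested on siUPF1 replicate 1, without which it was -0.75.

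**Figure D4:**
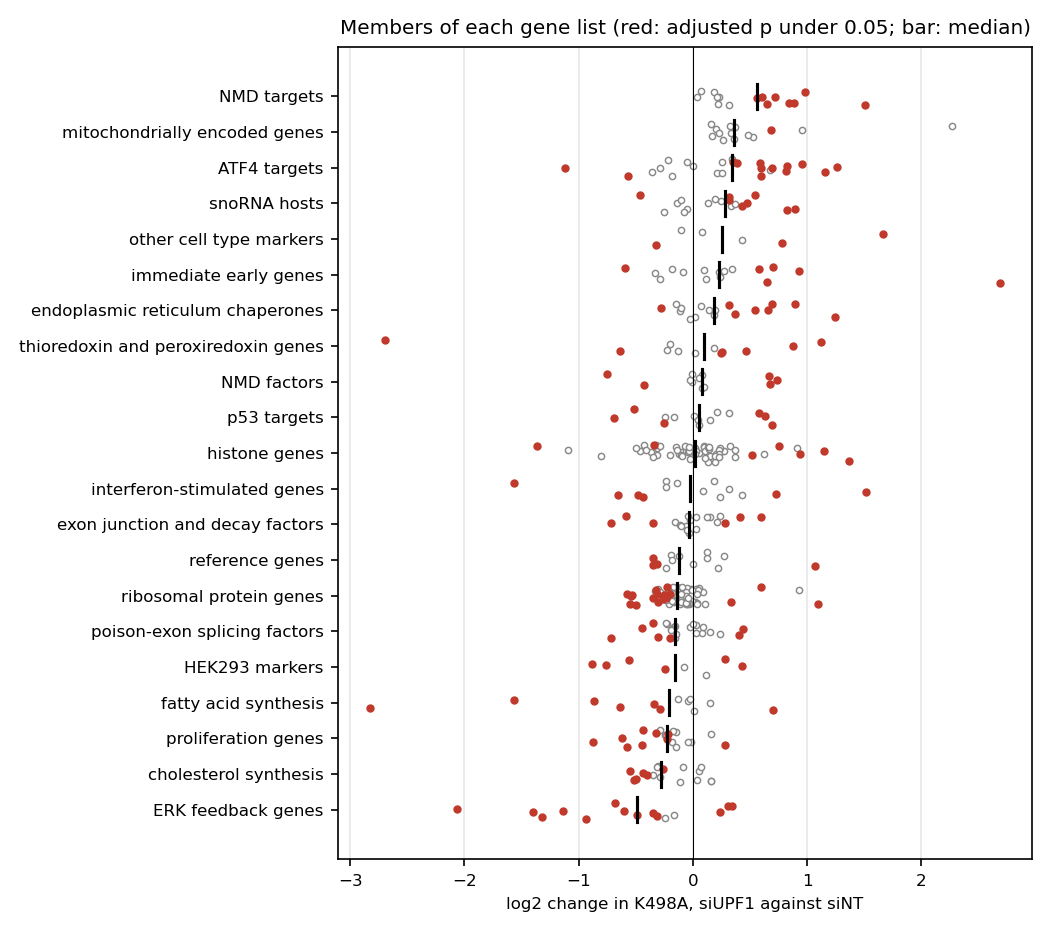
Log2 change in K498A (horizontal axis) for the tested members of each gene list, 1 NMD factor and 3 cholesterol genes left out, with called members in red, others open and the list median as a black bar. NMD targets have the highest median (0.56) and ERK feedback genes the lowest (-0.49), and single members such as ARC, PRDX3 and FADS2 lie far from their lists.

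The K498A response was then tested against that of WT, gene by gene, as the difference of the 2 responses. It was above that of WT for 276 genes (1.44%) and below it for 347 (1.81%), 623 in all (3.26%). With the replicate block the counts were 526 and 654, and every count depended on single libraries: the upward count was 167 without K498A siNT replicate 1, 180 without K498A siNT replicate 3, 148 without K498A siUPF1 replicate 2 and 143 without WT siNT replicate 2, and the downward count was 216 without the last. Without K498A siNT replicate 3 the direction and call of 66.1% of the 623 were kept. Among matched protein-coding genes the median annotated 3′ UTR was 1625 bases for the 226 above WT and 856 bases for the 337 below it, against 974.5 bases over all 13922. These 2 sets also differed in median transcript length (3834 and 2666 bases) and median log2 CPM (4.79 and 6.03). The shares with a transcript annotated as an NMD substrate were 42.9% and 43.6%, against 41.4% over all. No test was made of these features.

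Among genes with a mean level of 5 CPM or more, ACTA2, smooth muscle actin, had the largest upward difference, 1.71 (SE 0.22, adjusted p = 5.89e-06). It was 21.5, 18 and 18 CPM with siNT and 26.2, 22.7 and 26.2 CPM with siUPF1 in K498A, a change of 0.38 that was not called, and 27.6, 22.2 and 24.2 CPM and 11.2, 10 and 8.17 CPM in WT, where it fell by 1.32. ACTA2 overlaps FAS on the opposite strand. EGR1, a zinc finger immediate early factor, was 9.65, 11.4 and 7.57 CPM and 18.6, 22.3 and 13.6 CPM in K498A and 12.9, 16.9 and 8.69 CPM and 7.43, 10 and 6.44 CPM in WT, a difference of 1.61 (SE 0.38). The K498A groups were separated, with a rise of 0.93, and the WT groups overlapped. ETV5 went from 14.3, 18.5 and 18.2 CPM to 6.3, 7.84 and 9.11 CPM in K498A and from 19.7, 23.3 and 26.9 CPM to 2.92, 4.13 and 6.21 CPM in WT, so that it fell in both and by less in K498A (difference 1.30, SE 0.31).

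TNFAIP3, an inhibitor of NF-kappaB signalling, rose by 0.61 in K498A and fell by 0.57 in WT (difference 1.18, SE 0.30). The dynein gene DNAH6 rose by 0.48 in K498A and fell by 0.62 in WT (1.10). EPPK1, a cytoskeletal linker, went from 189.6, 193 and 245 CPM to 368, 382 and 374 CPM in K498A and was 155, 165 and 184 CPM and 115, 128 and 180.2 CPM in WT (1.09). The calls of TNFAIP3 and EPPK1 were lost in 5 and 9 of 12 fits that left out 1 library each (TNFAIP3 without K498A siNT replicate 3, adjusted p = 0.0619), EGR1 lost its call without WT siNT replicate 2 and ETV5 without WT siUPF1 replicate 1. DNAH6 lost its call in a fit to the 12 libraries of the 2 lines (adjusted p = 0.0625).

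METTL7A, a methyltransferase-like protein of lipid droplets, had the largest downward difference, -1.47 (SE 0.18, adjusted p = 1.75e-06). It went from 31.9, 32.2 and 39.5 CPM to 18.5, 16.8 and 21.9 CPM in K498A and from 31.9, 33.4 and 38 CPM to 43.3, 46.3 and 68.9 CPM in WT, so that it fell in K498A and rose in WT, with no overlap in either line. MAD2L1, of the spindle checkpoint, went from 122, 98.5 and 105 CPM to 45.1, 47.1 and 45.2 CPM in K498A (fall of 1.25, SE 0.15) and stood at 99.3, 95 and 109.8 CPM and 102, 98 and 95 CPM in WT (-0.04, not called). TMEM14C, a mitochondrial membrane protein, went from 49.1, 41.1 and 45.8 CPM to 18.9, 18.8 and 18.8 CPM in K498A and was 46.4, 40 and 47.9 CPM and 39.9, 37 and 44.3 CPM in WT. The levels of MAD2L1 and TMEM14C in the K498A siUPF1 libraries lay below all 9 other libraries of these 2 lines. FAM64A, which overlaps PITPNM3 on the opposite strand, fell by 1.51 in K498A with -0.35 in WT, and the matrix protein MATN2 fell by 1.22 with -0.07 in WT. HTRA1, the gene with the largest fall in K498A, differed from WT by -1.25 (SE 0.27).

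**Figure D5:**
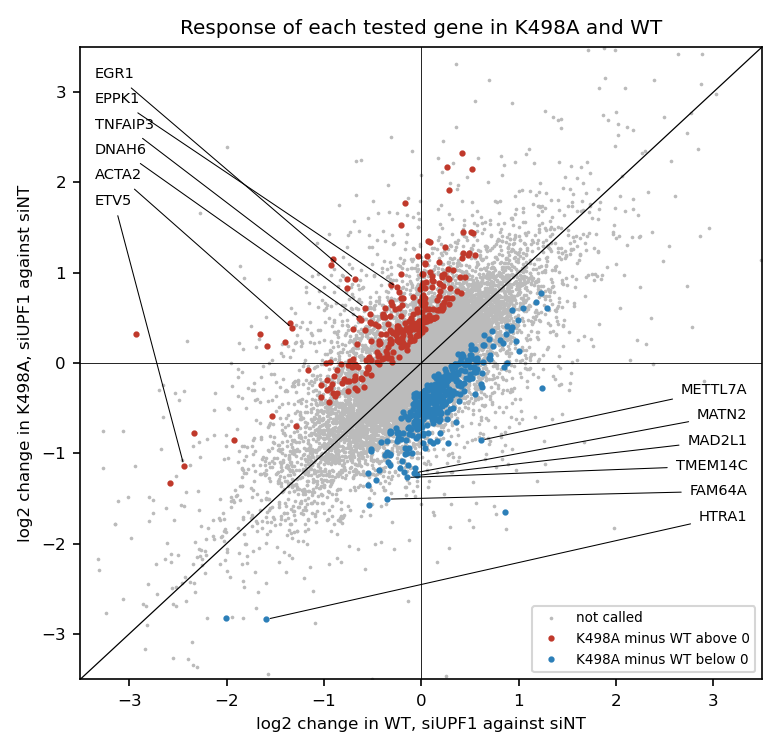
Log2 change after siUPF1 of each tested gene in WT (horizontal axis) and K498A (vertical axis), with the line of equal change; genes with a called difference are red (276 above WT) or blue (347 below), and the 12 with the largest differences under the naming rule are labelled. Axes end at 3.5, and 63 genes lie outside. The coloured genes lie off the line of equal change, and METTL7A lies in the quadrant of a fall in K498A and a rise in WT.

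Against the CLIP line, which has no UPF1 transgene, the K498A response was higher for 769 genes (4.02%) and lower for 1830 (9.57%), 2599 in all (13.6%). CLIP siUPF1 replicate 2 had 0.631% mitochondrial counts and stood apart. Without it the counts were 549 and 1530, and without K498A siNT replicate 3 they were 414 and 1199. With the replicate block they were 1663 and 2473. In a fit to these 12 libraries alone they were 67 and 272. Without CLIP siUPF1 replicate 1 or 3 the upward count was 1767 or 1407, and without CLIP siNT replicate 2 or K498A siUPF1 replicate 2 it was 494 or 490. UPF1 had the largest upward difference (2.30, SE 0.24), from the levels given above.

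MAP2K6, a kinase of the p38 pathway, was 20.2, 18.5 and 14 CPM and 9.52, 9.44 and 7.97 CPM in K498A and 22.7, 21 and 18.5 CPM and 3.3, 2.92 and 2.46 CPM in CLIP, so that it fell in both and less in K498A (difference 1.88, SE 0.26). ACTA2 (1.44), LMOD1 (1.27), SAMD9 (1.24) and PCDH18 (1.2) were the next upward, and SAMD9 lost its call in the fit to the 12 libraries (adjusted p = 0.0717). Downward, NT5M, a mitochondrial nucleotidase, was 10.2, 7.14 and 11.9 CPM and 4.51, 3.12 and 4.72 CPM in K498A, a fall, and 6.89, 5.75 and 6.82 CPM and 7.3, 12.4 and 11.1 CPM in CLIP, a rise of 0.66 (difference -1.90, SE 0.37). TSR2, a ribosome assembly factor, was 80.3, 78.7 and 95.2 CPM and 67.1, 71.4 and 71.7 CPM in K498A and rose from 95.4, 94.9 and 107 CPM to 211, 226 and 228 CPM in CLIP (-1.44, SE 0.12). WDR83 (-1.49), the cation channel TRPM4 (-1.48) and the methyltransferase VCPKMT (-1.38) followed C6orf48 in size. WDR83 and TSR2 overlap genes on the opposite strand. VCPKMT went from 3.64, 3.22 and 3.25 CPM to 14.4, 7.99 and 12 CPM in CLIP and from 3.24, 3.65 and 2.96 CPM to 4.11, 4.46 and 4.36 CPM in K498A, where the change was not called.

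No gene was called different between the K498A and DE636AA responses (0%). At an unadjusted p under 0.05 there were 262, DESeq2 called 0, and edgeR with no filter on low counts called 18 above and 24 below. The median absolute difference was 0.087 on the log2 scale, against 0.19 for K498A and WT and 0.30 for K498A and CLIP. ARC rose by 2.69 in K498A and 2.94 in DE636AA, HTRA1 fell by 2.84 and 2.85, and SCD by 0.64 and 0.89. Among other genes described above the differences were, for SPRY4, -0.65 (SE 0.26), and, for EGR1, -0.65 (SE 0.37), neither of which was called.

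The lists of called genes were also compared between lines, which share no library. Of the 3094 genes that rose in K498A, 2608 (84.3%) rose in DE636AA, 2250 (72.7%) in CLIP and 1734 (56.0%) in WT, which are 81.6%, 46.9% and 64.9% of the rises in those lines. Of the 3153 that fell, 2687 (85.2%) fell in DE636AA, 2007 (63.7%) in CLIP and 1716 (54.4%) in WT, which are 79.9%, 47% and 67.5% of the falls there. Genes called in the same direction in all 4 lines numbered 1330 upward and 1257 downward. Among those named above, PRDX3, MSX1, GUSB, RPLP0, VAV1 and SRPR are of this kind, and among these 6 the difference from WT was greatest for SRPR (-0.15). What these shared changes owe to the siRNA pair and what to UPF1 was not tested.

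With siNT the K498A and WT lines were alike at this threshold, with 5 genes called (0.0261%). At an unadjusted p under 0.05 there were 878, DESeq2 called 12 and edgeR with the replicate block called 94 higher and 41 lower in K498A. Here the block joined same-numbered siNT libraries of K498A and WT, in a fit to these 6 libraries alone. The labels do not give such a pairing across lines. Of the 5, PCDH19 and SLC7A11 met the naming rule, and the rest, at low levels, were chosen after their values were seen. CEBPE, a myeloid transcription factor, was 2.30, 3.30 and 3.85 CPM in K498A and 0.0686, 0.154 and 0.136 CPM in WT siNT libraries. CSF3R was 0, 0.0579 and 0.0344 CPM in K498A and 0.378, 0.863 and 0.645 CPM in WT. NPAS4 was 0, 0.0579 and 0 CPM in K498A and 0.618, 0.339 and 0.340 CPM in WT. PCDH19, a protocadherin, was 22.3, 17.5 and 16.8 CPM and 11.5, 11 and 11.3 CPM, and SLC7A11, the cystine transporter, 25, 30.6 and 26.9 CPM and 45.2, 44.3 and 48.6 CPM. The PCDH19 call was lost without K498A siNT replicate 1, without any 1 of the 3 WT siNT libraries and in a fit to the 6 libraries alone (adjusted p of 0.170 to 0.440). The SLC7A11 call was lost without K498A siNT replicate 1 or 3 and without any 1 of the WT siNT libraries (adjusted p of 0.0846 to 0.440). The count of genes lower in K498A was 1 without K498A siNT replicate 3, WT siNT replicate 1 or WT siNT replicate 3, and 0 without K498A siNT replicate 1 or WT siNT replicate 2. The 5 genes were called on these same siNT libraries, so the lack of overlap between their K498A and WT values adds no support. CEBPE kept its 2 lines apart with siUPF1 as well (2.53 to 4.15 CPM against 0.0265 to 0.247 CPM).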

How the data were processed

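Total RNA from 48 Flp-In 293 T-REx libraries (16 groups of 3) was measured. The authors deposited expected counts per gene for 57820 genes; cutadapt, STAR, RSEM, DESeq2 and hg19 are named in the submitters' processing notes, with versions not given in the sources used here. RSEM estimates how many reads belong to each gene, so reads shared by similar genes are divided by a model. The values were rounded to whole numbers and 19129 genes passed filterByExpr, holding at least 99.9% of counts. Groups were taken from the labels. The main test was edgeR 4.0.16 (R 4.3.3) with TMM and the quasi-likelihood test on all libraries (32 residual degrees of freedom, common biological coefficient of variation 0.114), Benjamini-Hochberg adjusted over all genes, threshold 0.05. Fold changes are on the log2 scale, as estimated by the fit. Each SE was derived as the absolute log2 change divided by the square root of the quasi-likelihood F value. It is approximate and unreliable for changes very near 0. A prior count of 2 was used for log2 CPM, from which the GC and pairing correlations were taken, and not for the fold changes. The script was tested on simulated data. DESeq2 1.42.0, other size factors, no filter, the contrast's libraries alone, leaving out each library and the replicate block were alternatives. CPM per library limits low genes: with 28.8 to 47.1 M counts, sampling error adds to replicate spread.

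Same-numbered siNT and siUPF1 libraries of K498A deviated together from their group means (Pearson r across 19129 genes of 0.182, 0.157 and 0.283). This pairing comes from the data, since the labels give only a shared number. The main fit did not use the pairing and had 1 term per group. With the replicate number as a block 3668 genes rose and 3730 fell in K498A, against 3094 and 3153 in the main fit. P-values measure the spread between replicates that the design text calls biological. Gene lists and members were chosen with earlier results of these data known. Named genes were the 12 largest called rises and falls (mean level 5 CPM or more, groups separated), the 6 largest each way for differences between lines, and up to 4 members of each list by size of change. Further list members were named after their values were seen. Clone-named, antisense and repeated symbols were left out of the ranked names. Some members of the gene lists, 1 NMD factor that rose among them, count in the totals and are not reported here by name.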

Additional observations from a re-analysis of the deposited data

Results flagged for a closer look

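The responses of the K498A and WT lines were compared by a test of the difference itself, and 276 genes above and 347 below WT passed it. Among genes with a mean level of 5 CPM or more, the largest upward differences on the log2 scale were in ACTA2 (1.71), EGR1 (1.61), ETV5 (1.30), TNFAIP3 (1.18), DNAH6 (1.10) and EPPK1 (1.09). ETV5 fell in both lines, and the others had opposite signs in K498A and WT. The largest downward differences were in METTL7A (-1.47), HTRA1 (-1.25), MAD2L1 (-1.2), FAM64A (-1.16), MATN2 (-1.15) and TMEM14C (-1.12). All 6 fell in K498A, and METTL7A alone of them rose in WT.

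The same test against the CLIP line passed for 769 genes above and 1830 below. Upward it picked out UPF1 (2.30), MAP2K6 (1.88), ACTA2 (1.44), LMOD1 (1.27), SAMD9 (1.24) and PCDH18 (1.2). MAP2K6 and PCDH18 fell in both lines and fell less in K498A. Downward it picked out NT5M (-1.90), C6orf48 (-1.71), WDR83 (-1.49), TRPM4 (-1.48), TSR2 (-1.44) and VCPKMT (-1.38). These 6 rose in CLIP, and NT5M and TSR2 fell in K498A. Both sets of differences use the same K498A libraries.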

How the results depend on the processing

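The K498A counts moved little: leaving out 1 library gave 2469 to 2889 rises and 2407 to 2840 falls, and the replicate block 3668 and 3730. The counts of differences moved more. Leaving out 1 library gave 143 to 276 genes above and 216 to 356 below WT, and 414 to 1767 above and 1199 to 2716 below CLIP (549 and 1530 without CLIP siUPF1 replicate 2). Between the siNT libraries of K498A and WT it gave 1 to 2 higher and 0 to 4 lower. With the replicate block the counts were 526 and 654 against WT and 1663 above CLIP. Between the siNT libraries they were 94 and 41, where the block joined same-numbered libraries of K498A and WT. A fit to the contrast's own libraries gave 183 above WT, 67 above and 272 below CLIP, and 1 higher with siNT. With no filter on low counts 18 genes were above and 24 below DE636AA, and 49 higher and 16 lower with siNT. DESeq2 gave 7 and 5 with siNT. The causes of these shifts were not tested.

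Of 157 values for counts and UPF1, 122 stayed within 1.5 times or the replicate spread, and of 693 values for lists 627 did. For single genes 1499 values kept direction and side of the threshold, 66 lost and 7 gained the call, and 2 reversed. Leaving out 1 library moved MT-RNR1 between -0.75 and 3.44 and MT-RNR2 between -0.49 and 1.39, with the negative values without K498A siUPF1 replicate 1. The replicate block made CD68 called (0.43, adjusted p = 0.016 by edgeR) and changed no other call among the single genes. At the depth of these libraries, genes under about 1 CPM, such as MT-RNR1 and CSF3R, rest on few counts. Each UPF1 form has 1 line, and the siRNA pair is the same in all lines.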
